A study of Eriobotrya japonica with 9 samples.

Results

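Leaves of loquat (*Eriobotrya japonica*, an evergreen fruit tree of the rose family) that had received melatonin before salt were compared with leaves of plants that had received only water. The comparison covers every gene with an FPKM of at least 1 in at least 3 of the 9 libraries, which is 22697 of the 43996 genes in the expression table, and it is described by the Gene Ontology (GO) terms and KEGG pathway maps that the table attaches to 12706 and 5078 of these genes. The 3 control libraries (CK) came from watered seedlings. The 3 libraries of the melatonin group (MTST) came from seedlings whose roots were first irrigated with 150 µmol/L melatonin and then exposed to 200 mmol/L NaCl, and were taken on day 10 of salt. A group given water and then 200 mmol/L NaCl (ST, 3 libraries) serves as the reference for salt without melatonin. Each group held 10 pots of 3 seedlings of uniform growth raised in culture. No group received melatonin without salt, so the part of melatonin and the part of salt in a difference between MTST and CK cannot be told apart.

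Melatonin is an indoleamine that plants make from tryptophan. It is known as an antioxidant and as a signal that dampens damage by salt, cold and drought. Salt harms leaves by withholding water and by loading the cells with sodium and chloride, and salt-stressed leaves typically close their stomata through abscisic acid (ABA), reduce photosynthesis, strengthen their surface and accumulate protective sugars, proline and polyamines. The question for each of these functions was what still differed between MTST and CK, and where ST stood.

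Library totals were 13464774 to 13951747 reads in CK, 13474045 to 14468499 in MTST and 13048770 to 13597345 in ST. Replicates differed by more than sampling noise, so no library was counted as a copy of another. The 10 most abundant genes held 11.2% to 11.6% of all TPM (transcript levels corrected for gene length and scaled to the same total in every library) in CK, 9.34% to 10.3% in MTST and 5.55% to 6.09% in ST. Each library's TPM values were rescaled by a median-of-ratios factor, because the study's own test scales in this way, and levels are given as such normalised TPM. Fold changes are differences of log2(normalised TPM + 1) between group means, which understate the change of weakly expressed genes, and adjusted p-values are from limma with Benjamini-Hochberg adjustment over all tested genes. On this scale the median of all log2 fold changes between MTST and CK was 0.0037, and with plain TPM it was 0.19.

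On the first principal component, which held 59.4% of the variance, the MTST libraries lay between the other groups, at 3.04 to 5.38 against -72.9 to -58.7 for CK and 60.2 to 65.2 for ST. The second component held 19.7% and set MTST apart from both, at -45.4 to -38.1 against 16.6 to 21.9 for CK and 14.6 to 31.3 for ST. MTST thus did not lie on the line that joins CK and ST.

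**Figure D1:**
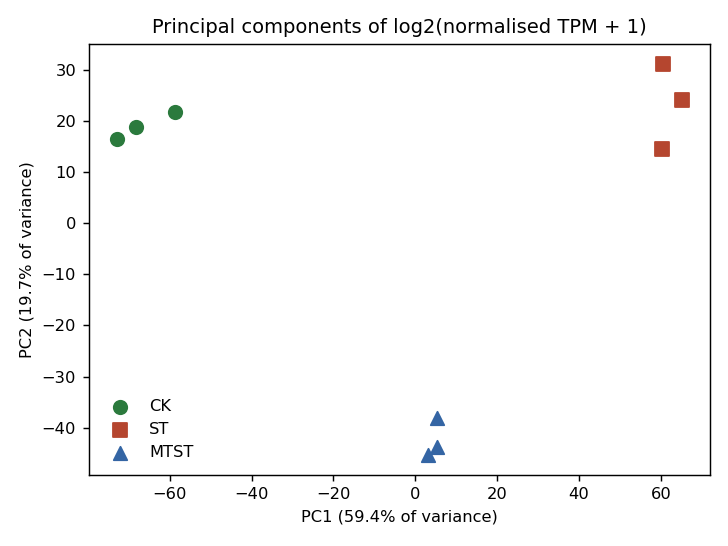
Principal components of log2(normalised TPM + 1) over the tested genes, with 1 point per library and the share of the variance on each axis. MTST (triangles) lies between CK (circles) and ST (squares) on the first component, at 3.04 to 5.38, and below both on the second, at -45.4 to -38.1.

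Of the tested genes, 3977 were higher in MTST than in CK at an adjusted p of at most 0.05 (17.5%) and 4424 were lower (19.5%). With a fold change of at least 2 added, 948 genes were higher (4.18%) and 1052 lower (4.63%). With plain TPM the balance turned, to 6994 higher (30.8%) and 2536 lower (11.2%), or 1399 and 725 at a fold of 2. All 948 higher genes and 725 of the 1052 lower genes passed with the fold under both scalings. Between MTST and ST, 3417 genes were higher in MTST (15.1%) and 3229 lower (14.2%). Members of annotation groups were counted at an adjusted p of at most 0.05, without a minimum fold unless one is named, and their counts are read against 17.5% higher and 19.5% lower for all genes, or against 30.8% and 11.2% where plain TPM is named. Leaving out a library also changed the counts over all genes. They were 2864 higher and 3342 lower without CK replicate 1, and 3218 and 3651 without CK replicate 2. Without 1 MTST library they were 2947 to 3136 and 3490 to 3621, and without ST replicate 1 4394 and 4709. Group counts without a library are read against these. Group medians with plain TPM are read against 0.19, the median of all tested genes on that scale. The comparisons of MTST and of ST with CK share the CK libraries, so their values are set side by side without a test, and MTST and ST were compared directly.

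**Figure D2:**
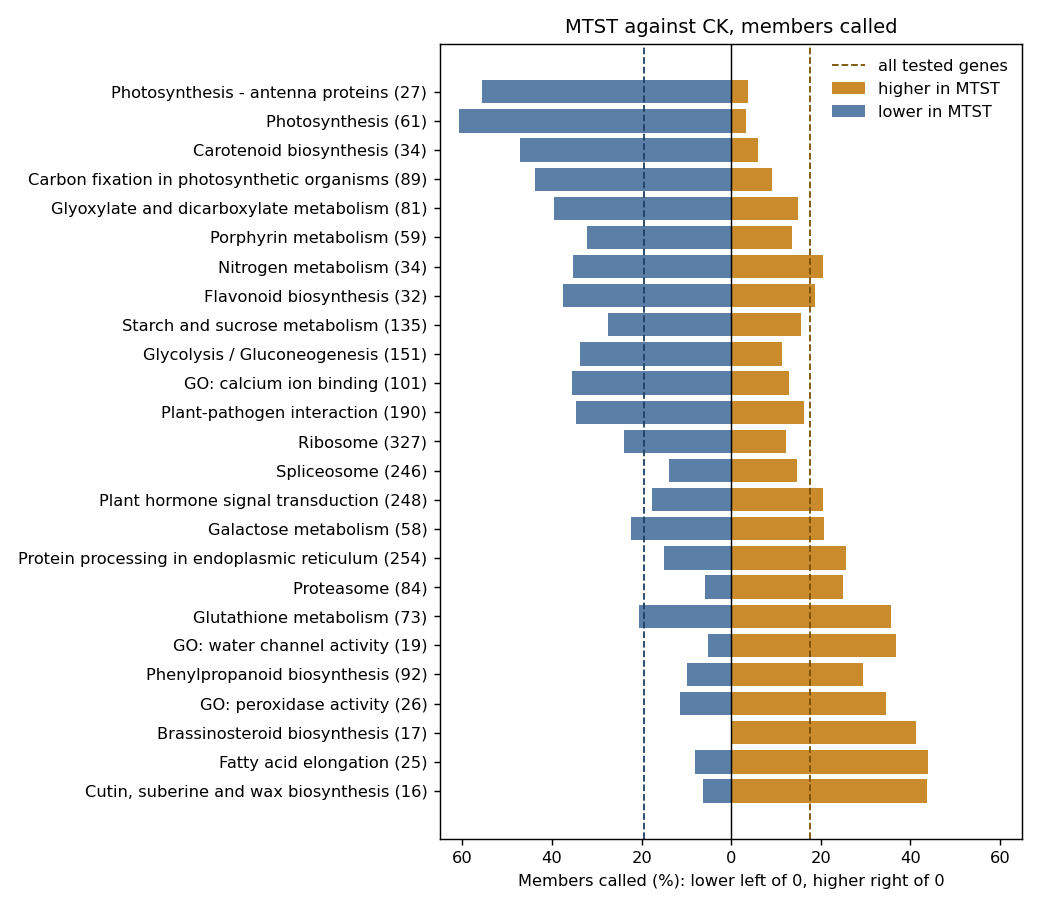
Share of the tested members of 25 annotation groups (number in brackets) that were lower (left of 0) or higher (right of 0) in MTST than in CK at an adjusted p of at most 0.05. The dashed lines mark the shares among all tested genes, 19.5% lower and 17.5% higher, and the photosynthesis maps reach furthest to the left.

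Among genes of photosynthesis, more were lower than higher in MTST compared with CK. Of 61 tested genes of the KEGG map Photosynthesis, which holds the photosystems, the electron transport chain and the ATP synthase, 37 were lower and 2 higher (60.7% and 3.3%). Of 27 tested antenna proteins, which bind chlorophyll and collect light, 15 were lower and 1 higher. With plain TPM the counts were 26 lower and 4 higher in the first map and 7 and 2 in the second. The median log2 fold change was -0.43 in the first map and -0.44 in the second, and it stayed negative with plain TPM, at -0.22 and -0.22. In ST the same medians against CK were -1.17 and -1.28. The direct comparison placed 44 of 61 photosynthesis genes and 23 of 27 antenna genes higher in MTST than in ST, and 4 and 2 lower. MTST therefore stood between the other groups, closer to CK for the median gene of both maps.

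These maps also mark the mesophyll, the green tissue of the leaf. The Photosynthesis map held 6.45 to 6.91% of all TPM in the CK libraries, 5.10 to 5.56% in MTST and 3.63 to 4.06% in ST, so all libraries carried the signature of green leaf. For the antenna proteins the shares were 5.57 to 6.68%, 5.15 to 5.26% and 3.22 to 3.58%. In RNA from whole leaves, fewer cells of a type and less RNA per cell cannot be told apart. The KEGG map DNA replication, a marker of dividing cells, held 0.0488 to 0.0535% of TPM in CK, 0.0647 to 0.0672% in MTST and 0.0707 to 0.0766% in ST. These are shares of plain TPM. On the normalised scale its mean log2 difference from the CK mean was 0.013 to 0.097 in MTST. The CK libraries, at -0.057 to 0.063, overlapped this range. Of its 44 tested genes 10 were higher and 6 lower (6 higher without MTST replicate 3). For GO microtubule motor activity, the other marker of dividing cells, 3 of 51 tested genes were higher and 11 lower (1 and 7 without CK replicate 1), or 8 and 7 with plain TPM. The part of tissue makeup in the results was not tested.

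**Figure D3:**
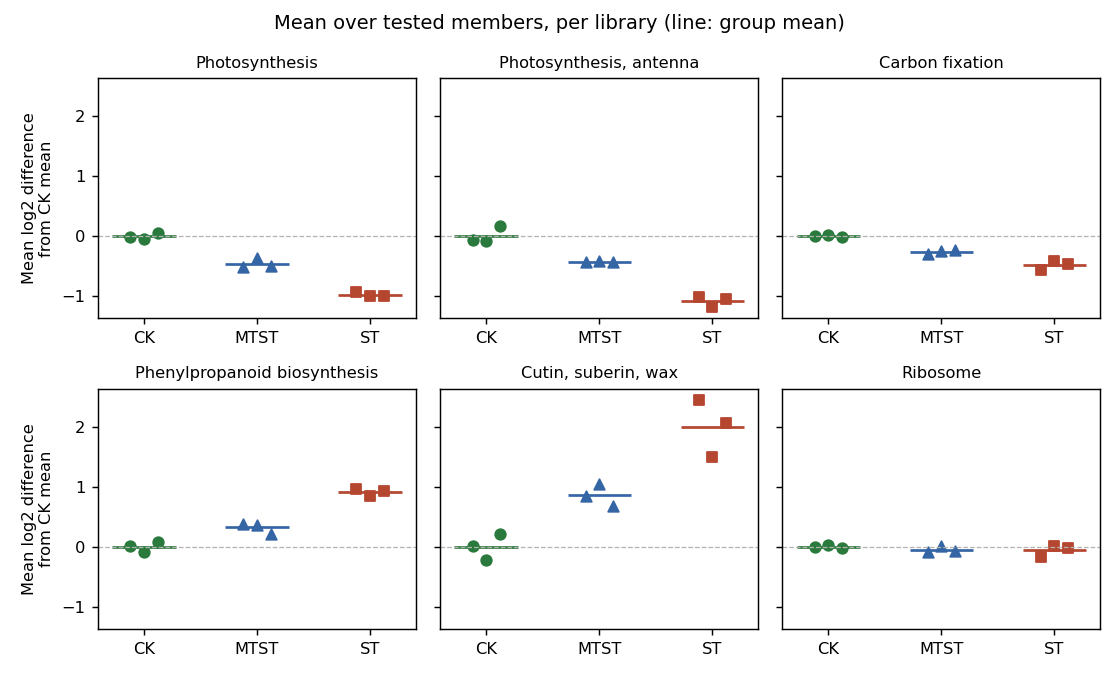
Mean log2 difference from the CK mean over the tested members of 6 annotation groups, with 1 point per library and a line at each group mean. In both photosynthesis panels, in carbon fixation, in phenylpropanoid biosynthesis and in the cutin, suberin and wax panel the MTST libraries lie between CK and ST, whereas in the Ribosome panel the groups overlap.

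Single genes of the map differed in where ST stood. Ej00055447, a gene of the Photosynthesis map, was at 601, 637 and 643 normalised TPM in the CK libraries, at 235, 268 and 243 in MTST and at 168, 168 and 169 in ST. The log2 fold change from CK to MTST was -1.33 ± 0.08 (SE, n = 3 per group, adjusted p = 6.8e-06, limma). The lead of MTST over ST was 0.56 ± 0.08 on the log2 scale (adjusted p = 0.00079, limma). Ej00074833, of the same map and less abundant, behaved otherwise. It was at 17.9, 17.3 and 14.4 normalised TPM in CK, 3.81, 7.12 and 5.29 in MTST and 14.0, 7.17 and 7.73 in ST, a log2 fold change of -1.48 ± 0.25 against CK (adjusted p = 0.0014, limma), and its difference from ST did not pass the test (-0.71, adjusted p = 0.056, limma).

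The pathway that makes chlorophyll and heme changed less evenly. Of 59 tested genes of the Porphyrin metabolism map, 19 were lower and 8 higher in MTST than in CK, or 10 and 14 with plain TPM. The median was -0.16, and 0.05 with plain TPM against 0.19 for all genes. It lay below that of all genes on both scales. Ferrochelatase, the enzyme that inserts iron to form heme, was among those that fell. The gene with that GO term, Ej00082249, was at 202, 203 and 171 normalised TPM in CK and at 68.7, 68.3 and 59.6 in MTST (-1.53 ± 0.10 on the log2 scale, adjusted p = 8.1e-06, limma). It was at 89.7, 84.8 and 78.0 in ST, so all MTST libraries lay below all ST libraries as well. Ej00081165, annotated with chlorophyllase activity, which strips the phytol tail from chlorophyll, rose from 28.8, 26.4 and 38.4 to 69.0, 78.2 and 56.4 (1.10 ± 0.17, adjusted p = 0.00087, limma). ST was at 38.5, 51.4 and 38.5, lower than MTST by the direct test (adjusted p = 0.017, limma). Ej00093026, with uroporphyrinogen decarboxylase activity, an early step shared by heme and chlorophyll, rose from 10.4, 7.99 and 10.4 to 20.3, 27.6 and 20.03 (1.15 ± 0.24, adjusted p = 0.0046, limma), whereas ST was at 6.74, 12.9 and 14.2.

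Of 89 tested genes of the map Carbon fixation in photosynthetic organisms, 39 were lower and 8 higher in MTST than in CK, and the median was -0.25 (-0.58 for ST against CK). With plain TPM 30 were lower and 19 higher, with a median of -0.05. Against ST, 41 genes of this map were higher in MTST and 12 lower. The map's share of all TPM was 5.73 to 5.79% in CK, 3.97 to 4.17% in MTST and 2.82 to 2.94% in ST. Ribose-5-phosphate isomerase converts pentose phosphates in the Calvin cycle. Its gene Ej00070154 was at 228, 228 and 204 normalised TPM in CK, 72.3, 72.5 and 67.2 in MTST and 53.9, 52.3 and 50.1 in ST, a fall of 3.11-fold between the means of CK and MTST (-1.62 ± 0.08 on the log2 scale, adjusted p = 3.3e-06, limma). The lead of MTST over ST was 0.43 on the log2 scale (adjusted p = 0.0027, limma). One glyceraldehyde-3-phosphate dehydrogenase gene, Ej00083815, which the table also places in glycolysis, rose instead, from 12.4, 13.7 and 14.0 to 32, 32.1 and 25.4 (1.10 ± 0.13, adjusted p = 0.00023, limma), and was higher still in ST, at 38.6, 52.8 and 49.9.

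Glyoxylate and dicarboxylate metabolism, the map of the photorespiratory cycle, had 32 of 81 tested genes lower and 12 higher, or 21 and 18 with plain TPM. Its median was -0.20, and 0.01 with plain TPM against 0.19 for all genes. Glycine hydroxymethyltransferase turns glycine into serine in this cycle. Ej00004084, annotated with that activity, fell from 73.7, 71.2 and 53.8 to 22.3, 25.3 and 28.1 normalised TPM (-1.35 ± 0.15, adjusted p = 0.00013, limma), and ST was at 16.2, 21.9 and 20.7. Ej00028942, with (S)-2-hydroxy-acid oxidase activity, the activity of the peroxisomal enzyme that oxidises glycolate, rose from 6.55, 4.77 and 7.48 to 20.7, 22.6 and 21.2 (1.65 ± 0.17, adjusted p = 9.1e-05, limma) and was at 26.8, 40.1 and 37.2 in ST. Members of 1 map thus moved in opposite directions. In Nitrogen metabolism, 12 of 34 genes were lower and 7 higher (4 higher without CK replicate 1), and with plain TPM 9 were lower and 11 higher. The largest fall there was in Ej00079448, with carbonate dehydratase activity, from 22.4, 25.0 and 12.6 to 4.70, 4.36 and 3.98 (-1.92 ± 0.22, adjusted p = 0.00014, limma).

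A gene annotated to the formation of ABA fell in MTST and a gene annotated to its breakdown rose. ABA is made from carotenoids and closes stomata under water shortage. Of 34 tested genes of the Carotenoid biosynthesis map, which includes the steps to and from ABA, 16 were lower and 2 higher in MTST than in CK (median -0.34, and -0.66 for ST against CK), or 11 and 4 with plain TPM. Ej00005370, annotated with 9-cis-epoxycarotenoid dioxygenase activity, the cleavage that commits carotenoids to ABA, was at 201, 199.7 and 216 normalised TPM in CK and at 52.3, 53.1 and 47.0 in MTST. That is a fall of 4.05-fold between the means (-2.0 ± 0.08 on the log2 scale, adjusted p = 2.1e-06, limma). ST was at 129, 122 and 111, so that MTST was lower than ST too (-1.23 ± 0.08, adjusted p = 4.1e-05, limma). Ej00048724, annotated with (+)-abscisic acid 8'-hydroxylase activity, the main route of ABA breakdown, was at 20.7, 20.5 and 22.7 in CK and 58.4, 50.1 and 74.7 in MTST (1.46 ± 0.16, adjusted p = 0.00013, limma). It reached 166, 243 and 201 in ST and was lower in MTST than in ST (adjusted p = 0.00011, limma). This transcript for ABA formation was thus lowest in MTST, and that for ABA breakdown lay between CK and ST.

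**Figure D4:**
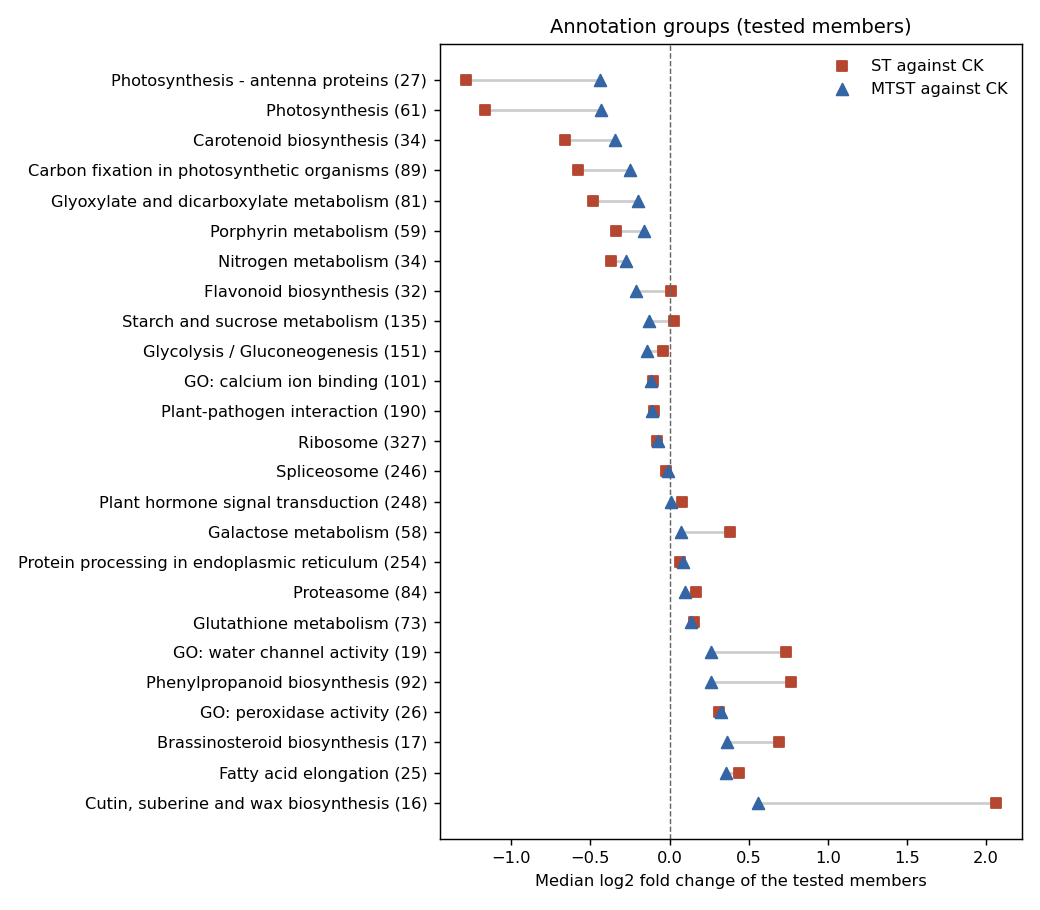
Median log2 fold change of the tested members of 25 annotation groups (number in brackets) for MTST against CK (triangles) and ST against CK (squares), 2 comparisons that share the CK libraries. For photosynthesis, carotenoids, carbon fixation and cutin, suberin and wax the triangle lies nearer to 0 than the square. With plain TPM the MTST median turns positive for glyoxylate, porphyrin, flavonoids, starch, glycolysis, calcium ion binding, plant-pathogen interaction, ribosome and spliceosome. All of these except spliceosome stay below 0.19, the plain TPM median of all tested genes.

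Among genes that build the leaf surface, more were higher in MTST than lower. Of 16 tested genes of the map Cutin, suberine and wax biosynthesis, 7 were higher and 1 lower, 6 of them higher by at least a fold of 2, and the median was 0.56. For ST against CK the median was 2.06, and 10 of the 16 genes were lower in MTST than in ST and 1 higher. Only these 16 of 39 genes of the map were expressed highly enough to be tested. Ej00087350 was nearly silent in CK, at 0.4, 0.234 and 0.665 normalised TPM, and stood at 19.7, 21.5 and 19.6 in MTST and 26.1, 30.1 and 26.9 in ST. Its log2 fold change from CK to MTST was 3.90 ± 0.13 (adjusted p = 4e-07, limma). Ej00009007, of the same map, rose from 2.10, 1.28 and 5.22 to 17.1, 27.2 and 17.0 (2.57 ± 0.43, adjusted p = 0.0013, limma) and reached 104, 34.6 and 63.3 in ST. Fatty acid elongation, which supplies the long chains of waxes, had 11 of 25 genes higher and 2 lower, but 3 higher without CK replicate 1.

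Phenylpropanoid biosynthesis, the route to lignin and to many phenolic compounds, also had more rises than falls. Of 92 tested genes 27 were higher and 9 lower, with 14 and 5 at a fold of at least 2 and a median of 0.26. In ST the median against CK was 0.77, and 38 genes were lower in MTST than in ST against 10 higher. Hydroxycinnamoyltransferase carries phenylpropanoids towards lignin. Its gene Ej00001517 was at 11.7, 13.2 and 20.9 normalised TPM in CK, 46.2, 42 and 36.6 in MTST and 38.4, 25.3 and 29.7 in ST (1.43 ± 0.21 for MTST against CK, adjusted p = 0.00063, limma). Ej00067779, placed in the phenylpropanoid, flavonoid and stilbenoid maps, rose from 3.09, 3.07 and 5.11 to 22.8, 18.3 and 17.7 (2.13 ± 0.23, adjusted p = 0.00012, limma) and stood at 80.3, 42.8 and 65.1 in ST. Ej00066388, with beta-glucosidase activity, which frees compounds from their sugar, fell from 18.7, 19.2 and 18.1 to 2.65, 1.72 and 1.70 and lay below 1 in every ST library (-2.71 ± 0.20 for MTST against CK, adjusted p = 1.4e-05, limma). The direction of this map is thus a balance of rises and falls, with members spanning -2.71 to 3.39.

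The neighbouring flavonoid branch had 12 of 32 genes lower and 6 higher (7 lower without MTST replicate 1), or 7 lower and 7 higher with plain TPM. Its median was -0.21, and 0.001 with plain TPM against 0.19 for all genes. Chalcone synthase makes the first flavonoid intermediate. Ej00054582, annotated with naringenin-chalcone synthase activity, was at 286, 224 and 420.1 normalised TPM in CK and 133, 119 and 84.0 in MTST (-1.44 ± 0.24, adjusted p = 0.0013, limma), with ST at 124, 85.1 and 103. Ej00014264, with the same annotation, fell from 137, 113 and 209 to 65.9, 67.6 and 39.4 (-1.38 ± 0.27, adjusted p = 0.0033, limma). Xyloglucan:xyloglucosyl transferases cut and rejoin the hemicellulose of the cell wall. Of 8 tested genes with this GO term 3 were higher and 1 lower, and Ej00085743 rose from 7.99, 7.36 and 8.52 to 22.4, 23.5 and 15.2 against 61.9, 59.1 and 55.8 in ST (1.23 ± 0.15 for MTST against CK, adjusted p = 0.00019, limma). The log2 difference of MTST from ST was -1.51 for this gene (adjusted p = 0.00013, limma).

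Genes with the activity of galactinol synthase also moved in opposite directions. Galactinol synthase, whose GO name is inositol 3-alpha-galactosyltransferase, makes the building block of the raffinose sugars that accumulate in dry or salty conditions. Ej00094029, with this activity, rose from 6.18, 4.45 and 7.55 normalised TPM in CK to 79.2, 98.9 and 81.8 in MTST, 14.3-fold between the means (3.65 ± 0.33 on the log2 scale, adjusted p = 4.1e-05, limma). ST was at 34.2, 103 and 70.4 and overlapped MTST. Ej00074880 rose as well, from 0.834, 0.284 and 0.359 to 11.6, 15.5 and 11.0 (3.20 ± 0.38, adjusted p = 0.00019, limma), and was higher in MTST than in ST, at 1.46, 6.89 and 5.74 (adjusted p = 0.019, limma). Another pair with the same activity fell. Ej00034194 went from 85.6, 95 and 72.5 to 9.53, 7.90 and 7.28, 10.2-fold lower (-3.21 ± 0.16, adjusted p = 3.4e-06, limma), and to 3.20, 3.19 and 2.10 in ST. Ej00011449 went from 217, 238 and 184 to 31.5, 37.3 and 40.5 (-2.52 ± 0.20, adjusted p = 2.4e-05, limma) and to 11.2, 14.4 and 7.22 in ST. Both falls were smaller in MTST than in ST by the direct test (adjusted p = 0.00038 and 0.00035, limma). Over the whole Galactose metabolism map, 12 of 58 genes were higher and 13 lower, near the shares of all genes, with a median of 0.07 against 0.38 in ST. Genes of 1 annotated activity may be near-identical copies, and how reads that fit several genes were counted is not given in the sources used here.

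In starch and sucrose metabolism 37 of 135 genes were lower and 21 higher, or 26 and 33 with plain TPM. The median was -0.13, and 0.07 with plain TPM against 0.19 for all genes. Trehalose-phosphatase completes the synthesis of the sugar trehalose. Its gene Ej00051151 was at 149.7, 151 and 126 normalised TPM in CK, 39.2, 31.4 and 36.1 in MTST and 20.9, 23.5 and 22.5 in ST (-1.97 ± 0.11 for MTST against CK, adjusted p = 5.1e-06, limma). Ej00094734, with beta-amylase activity, which releases maltose from starch, rose from 15.4, 15.2 and 13.6 to 63.3, 34.1 and 41.2 (1.54 ± 0.19, adjusted p = 0.00024, limma) and stood at 89.5, 114 and 102 in ST. Glycolysis and gluconeogenesis had 51 of 151 genes lower and 17 higher (median -0.14). With plain TPM 31 were lower and 40 higher (median 0.05, again below that of all genes).

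A gene for arginine decarboxylase and a gene for adenosylmethionine decarboxylase, both of polyamine synthesis, fell. Arginine decarboxylase opens the route to putrescine, and its gene Ej00052936 was at 952, 1063 and 730.0 normalised TPM in CK and at 311, 279.8 and 227 in MTST (-1.74 ± 0.15 on the log2 scale, adjusted p = 3.9e-05, limma). ST was at 433, 399.7 and 459, above MTST by the direct test (adjusted p = 0.01, limma). Adenosylmethionine decarboxylase provides the group that extends putrescine to spermidine. Its gene Ej00070078 fell from 254, 266 and 265 to 79.7, 76.9 and 66.8 (-1.80 ± 0.13, adjusted p = 1.5e-05, limma), and ST, at 88.6, 62.1 and 62.4, overlapped MTST. Ej00055828, with proline dehydrogenase activity, which degrades the osmolyte proline, rose from 16.7, 17.5 and 17.5 to 44.0, 52.7 and 43.8 (1.39 ± 0.21, adjusted p = 0.00087, limma), against 40.2, 77.9 and 76.6 in ST. Over the Arginine and proline metabolism map, 13 of 63 genes were higher and 8 lower (8 higher without MTST replicate 1), or 27 and 5 with plain TPM.

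For water and ions, single transporters changed by more than a fold of 2, while their groups were mixed. Of 19 tested genes with GO water channel activity, 7 were higher in MTST than in CK and 1 lower, but 2 were higher without MTST replicate 2. Their median was 0.26 against 0.74 in ST, and 8 were lower in MTST than in ST. Their mean log2 difference from the CK mean was -0.043 to 0.34 in MTST. The CK libraries, at -0.29 to 0.35, overlapped this range. Ej00000633, one of these channels, rose from 3.63, 3.71 and 3.41 to 8.21, 9.58 and 7.43 normalised TPM (1.03 ± 0.22, adjusted p = 0.0047, limma) and reached 19.4, 39.4 and 32.9 in ST. This call was lost with limma-voom on recovered reads (adjusted p = 0.065). Ej00009419, whose GO terms name potassium:proton antiporter activity and nitrate transport, was at 10.4, 10.5 and 6.35 in CK, 73.1, 64.4 and 59.3 in MTST and 52.0, 127 and 86.0 in ST. That was a rise of 7.23-fold between the means of CK and MTST (2.75 ± 0.28 on the log2 scale, adjusted p = 8.6e-05, limma). Ej00073946, with calcium:proton antiporter activity, which moves calcium out of the cytosol, fell from 386, 429.9 and 288 to 129, 119.7 and 113 (-1.58 ± 0.17, adjusted p = 0.0001, limma), with ST at 168, 118 and 168. Antiporters as a group had 14 of 65 genes higher and 21 lower, or 17 and 18 with plain TPM. Their median was -0.18, and 0.03 with plain TPM against 0.19 for all genes.

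A second gene with potassium:proton antiporter activity, Ej00088029, separated MTST from ST. It was at 0.0605, 0.309 and 0.235 normalised TPM in CK, 15.1, 1.16 and 17.8 in MTST and 77.4, 299 and 220.1 in ST. MTST replicate 2 was thus far below the other MTST libraries. The log2 difference of MTST from ST was -4.32 ± 0.75 (adjusted p = 0.0023, limma). The rise over CK (2.86 ± 0.75, adjusted p = 0.014, limma) did not pass without MTST replicate 1 or without MTST replicate 3 (adjusted p = 0.055 in each case), nor with limma-voom on recovered reads (adjusted p = 0.25).

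Enzymes that handle reactive oxygen changed in both directions. Glutathione metabolism had 26 of 73 genes higher and 15 lower, and GO peroxidase activity 9 of 26 higher and 3 lower (1 lower without MTST replicate 1, 5 without ST replicate 1). Ascorbate peroxidase removes hydrogen peroxide with ascorbate. Its gene Ej00064028 was at 69.1, 49.6 and 116 normalised TPM in CK, at 241, 220.4 and 216 in MTST and at 89.1, 86.4 and 82.5 in ST. All MTST libraries lay above all ST libraries. The log2 difference of MTST was 1.60 ± 0.24 from CK (adjusted p = 0.00066, limma) and 1.38 ± 0.24 from ST (adjusted p = 0.0022, limma). Superoxide dismutase converts superoxide to hydrogen peroxide. Ej00092867, annotated with this activity, was at 80.5, 45.6 and 176 in CK and 5.66, 6.04 and 6.82 in MTST, 16.3-fold lower between the means (-3.61 ± 0.37 on the log2 scale, adjusted p = 7.9e-05, limma), and at 10.6, 11.3 and 12.6 in ST. The CK libraries of this gene differed widely among themselves. The lowest of them was above every ST library, and above every MTST library as the rule for naming genes required.

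Glutathione transferases, which couple glutathione to reactive or foreign compounds, also split. Of 19 tested genes with this GO term 6 were higher and 4 lower. Ej00011630 rose from 20.2, 16.2 and 34.5 to 107, 116 and 78.8 normalised TPM (2.10 ± 0.32, adjusted p = 0.00076, limma), with ST at 186, 82.5 and 132. Ej00035357 fell from 69.2, 46.5 and 94.8 to 24.3, 32 and 27.2 (-1.25 ± 0.23, adjusted p = 0.0024, limma), while ST was at 57.4, 74.8 and 83.6, above MTST by the direct test (adjusted p = 0.0024, limma). For Ej00035357 ST thus stayed in the range of CK and only MTST was low.

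**Figure D5:**
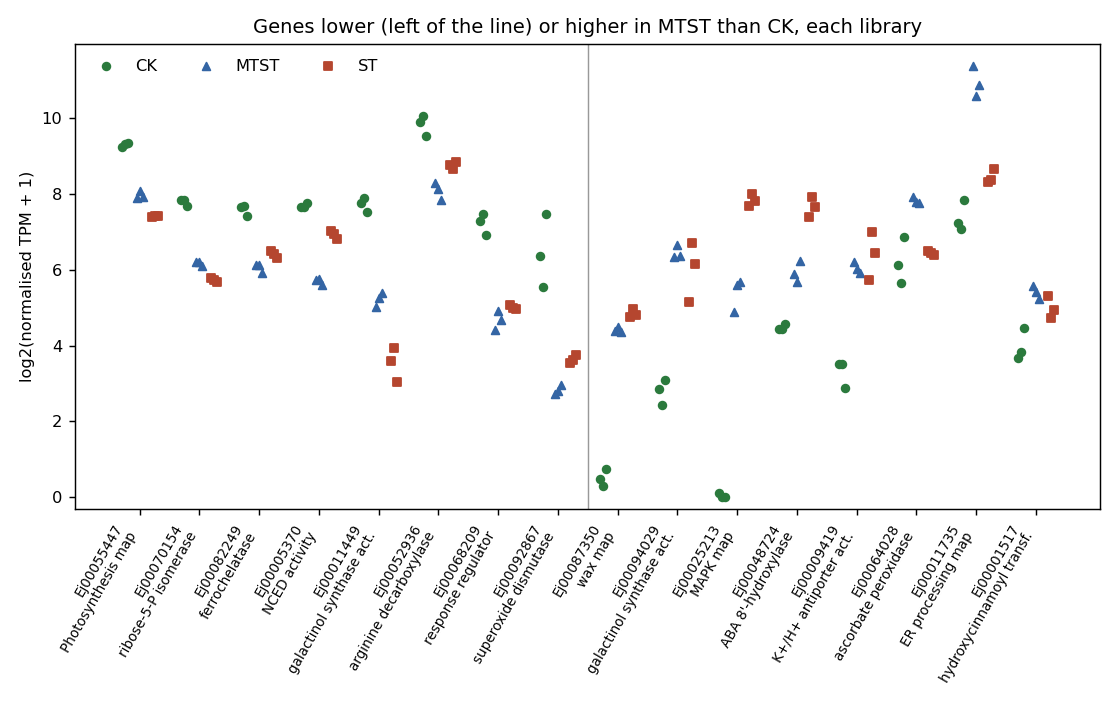
Level of 16 genes in each library as log2(normalised TPM + 1), with the 8 left of the line lower in MTST than in CK and the 8 to the right higher. MTST points (triangles) and CK points (circles) of a gene do not overlap because the rule for naming genes required it. Of all tested genes, 52.5% had no overlap. Among the 8 that rose, the ER processing gene Ej00011735 and the ascorbate peroxidase gene Ej00064028 have all MTST points well above ST (squares).

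Protein processing in the endoplasmic reticulum (ER) was among the groups with more rises than falls. Of 254 tested genes of the map Protein processing in endoplasmic reticulum, 65 were higher and 38 lower (40 and 24 without CK replicate 1), with 12 higher and 1 lower at a fold of at least 2. With plain TPM 114 were higher and 17 lower, 20 and 1 of them at that fold. The median was 0.08, close to that of all genes. Protein folding by its GO term did not lean to rises beyond those of all genes. Of 44 tested genes with GO unfolded protein binding, 4 were higher and 7 lower (median -0.08). With plain TPM 12 were higher and 4 lower, where 30.8% of all genes were higher and 11.2% lower. Ej00011735, of the ER processing map, was among the 10 largest rises of all annotated genes. It was at 149.9, 134 and 228 normalised TPM in CK, 2667, 1534 and 1863 in MTST and 316, 328 and 404 in ST. The log2 difference of MTST was 3.56 ± 0.23 from CK (adjusted p = 9.5e-06, limma) and 2.50 ± 0.23 from ST (adjusted p = 0.00011, limma). Ej00016102 of the same map was at 30.0, 14.9 and 79.3 in CK, 279, 157 and 191 in MTST and 51.8, 71.2 and 73.5 in ST, and was higher in MTST than in either group (adjusted p = 0.0022 against CK and 0.026 against ST, limma). The single fall of this size was in Ej00033588, from 1235, 1332 and 1119.9 to 553, 443 and 451 (-1.35 ± 0.11, adjusted p = 2.4e-05, limma). The Proteasome map, which degrades tagged proteins, had 21 of 84 genes higher and 5 lower (13 and 3 without CK replicate 1) and a median of 0.10, or 56 and 3 with plain TPM.

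Hormone signalling as a whole stood near the shares of all genes, with marked single changes. Of 248 tested genes of the map Plant hormone signal transduction, 51 were higher and 44 lower (28 lower without MTST replicate 3), and the median was 0.01. In the MAPK map of plants, 28 of 126 were higher and 31 lower. Ej00068209, a phosphorelay response regulator, the class of protein that carries cytokinin signals, was at 155, 175 and 119.6 normalised TPM in CK and 20.2, 28.9 and 24.6 in MTST, 6.10-fold lower (-2.56 ± 0.15 on the log2 scale, adjusted p = 7e-06, limma). ST was at 32.7, 30.6 and 30.0. Ej00065607, annotated with MAP kinase kinase activity, the middle step of a kinase cascade, fell from 66.9, 75.2 and 46.3 to 20.1, 22.1 and 17.0 (-1.60 ± 0.22, adjusted p = 0.00044, limma). Ej00016784, a protein serine/threonine phosphatase listed in both maps, rose from 4.37, 2.74 and 3.99 to 11.7, 14.9 and 18.3 (1.76 ± 0.30, adjusted p = 0.0016, limma). It reached 47.1, 121 and 91.7 in ST, and the log2 difference of MTST from ST was -2.37 (adjusted p = 0.00049, limma). Brassinosteroid biosynthesis, which makes the steroid hormones of plants, had 7 of 17 genes higher and the other 10 not called. Its gene Ej00042904, with steroid 22-alpha hydroxylase activity, rose from 4.12, 5.07 and 3.13 to 9.41, 8.68 and 12 (1.12 ± 0.19, adjusted p = 0.0015, limma).

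Counted at any fold, falls outnumbered rises among genes of defence and calcium sensing on the normalised scale. With plain TPM falls and rises were near equal in number, where all genes had more rises than falls. In the Plant-pathogen interaction map 66 of 190 tested genes were lower and 31 higher, with 27 and 4 at a fold of at least 2. With plain TPM 47 were lower and 51 higher at any fold, but 20 lower and 11 higher at a fold of at least 2. The number of higher genes was 15 without CK replicate 1, and the median of -0.11 became 0.10 with plain TPM, against 0.19 for all genes. The plain TPM counts at any fold stand against 11.2% lower and 30.8% higher among all genes. Those at a fold of at least 2 stand against 725 lower and 1399 higher of 22697. Ej00068337, a calcium ion binding protein of this map, was at 575, 606 and 650.3 normalised TPM in CK, 213, 142 and 127 in MTST and 82.9, 73.8 and 73.5 in ST (-1.95 ± 0.16 for MTST against CK, adjusted p = 2.8e-05, limma). MTST was higher than ST by 1.02 on the log2 scale (adjusted p = 0.0015, limma). Ej00017520 of the same map fell from 39.9, 35.5 and 40.4 to 5.19, 6.99 and 6.65 (-2.45 ± 0.20, adjusted p = 2.8e-05, limma), with ST at 9.65, 4.65 and 7.30. GO calcium ion binding, with 30 of its 101 tested genes also in that map, had 36 lower and 13 higher (8 higher without CK replicate 1). With plain TPM it had 24 lower and 25 higher, or 9 and 7 at a fold of at least 2.

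The TIFY family, named for a short peptide motif, includes the JAZ repressors of jasmonate signalling. The study identified 26 members in loquat, and 25 could be tested here, since *EjJAZ10* was expressed too weakly. Of these 8 were lower in MTST than in CK and 2 higher, with a median of -0.15. With plain TPM 4 were lower and 5 higher, with a median of 0.06 against 0.19 for all genes. *EjJAZ3* (Ej00062233) was at 59.3, 63.9 and 38.8 normalised TPM in CK, 19.7, 17.8 and 12.9 in MTST and 38.2, 24.1 and 26.1 in ST. It was lower in MTST than in CK (-1.61 ± 0.23, adjusted p = 0.00051, limma) and than in ST (-0.77 ± 0.23, adjusted p = 0.03, limma). *EjJAZ8* (Ej00086002) fell from 81.3, 86.7 and 49.6 to 40.5, 37.4 and 22.8 (-1.09 ± 0.24, adjusted p = 0.006, limma), whereas ST was at 111, 93.5 and 91.6, above both. *EjJAZ9* (Ej00034586) fell from 101, 123 and 66.4 to 46.1, 37.0 and 26.9 (-1.36 ± 0.25, adjusted p = 0.0022, limma), and ST was at 58.8, 40.2 and 42.1.

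Smaller changes passed in 7 further members. *EjJAZ14* (Ej00076455) fell by 0.96 on the log2 scale, and this call held in every alternative. The falls of *EjJAZ5* (Ej00000519, -0.87), *EjJAZ15* (Ej00049095, -0.48), *EjTIFY2* (Ej00047474, -0.35) and *EjZML4* (Ej00030881, -0.38) were lost with plain TPM, at adjusted p-values from limma of 0.081, 0.16, 0.29 and 0.28. All of these were also lost without CK replicate 2, at 0.12, 0.086, 0.052 and 0.08. Among those that rose, *EjZML7* (Ej00015015) was at 5.57, 4.08 and 4.16 in CK and 6.31, 7.40 and 9.50 in MTST (0.64 ± 0.16, adjusted p = 0.012, limma). *EjJAZ4* (Ej00056492) was at 3.08, 4.2 and 2.53 in CK, 6.09, 8.73 and 4.96 in MTST and 22.7, 15.0 and 18.6 in ST (0.82 ± 0.22 for MTST against CK, adjusted p = 0.015, limma). Its call was lost without CK replicate 1 (adjusted p = 0.050, just above the threshold) or MTST replicate 2 (adjusted p = 0.06). The number of lower members of the family was 4 without CK replicate 2.

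Of 327 tested Ribosome genes 40 were higher and 78 lower (median -0.08), or 89 higher and 26 lower with plain TPM (median 0.14). Of 246 Spliceosome genes 36 were higher and 34 lower (21 and 21 without CK replicate 1), with a median of -0.0071. With plain TPM they numbered 86 and 13 (median 0.20), where the median of all genes was 0.19. The circadian rhythm map had 11 of 57 genes higher and 11 lower. GO terms that name the treatment held both rises and falls. Of 573 tested genes with response to salt stress 113 were higher (19.7%) and 146 lower (25.5%). Response to osmotic stress, which includes all of those genes, had 135 and 173 of 671. Response to water had 93 and 87 of 371, that is 25.1% and 23.5%. With plain TPM the higher and lower genes numbered 204 and 93 for salt stress, 237 and 110 for osmotic stress and 140 and 55 for water, where 30.8% of all genes were higher and 11.2% lower.

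Some of the largest rises over CK were in genes nearly silent in watered leaves. Ej00025213, a gene of the MAPK and amino sugar maps, had 1 read in all CK libraries and 1744 in MTST, a ratio of 1703 per library total with a 95% exact interval of 305 to 67309, which covers counting error only. Its levels were 28.8, 47.6 and 50.1 normalised TPM in MTST and 203, 253 and 223 in ST (log2 difference of MTST from ST -2.43 ± 0.18, adjusted p = 5e-05, limma). Ej00003448, annotated with alpha-amylase and serine endopeptidase inhibitor activities, had 0 reads in CK and 691 in MTST and was at least 225-fold higher, counted against a floor of 3 reads over the CK group. It was at 41.6, 9.87 and 57.1 in MTST and 172, 437 and 388 in ST, and limma-voom on recovered reads did not call it (adjusted p = 0.064). Ej00036041, annotated with sequence-specific DNA binding, was not silent in CK, at 9.34, 8.01 and 8.62. It stood at 182, 217 and 195 in MTST and 161, 354 and 239 in ST (4.36 ± 0.22 for MTST against CK, adjusted p = 4.2e-06, limma). Its MTST and ST libraries overlapped.

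Not all strong rises were alike in MTST and ST. Ej00058339, with polysaccharide binding activity, was at 15.3, 16.3 and 11.5 normalised TPM in CK, 170.5, 132 and 205 in MTST and 632, 2820.1 and 2557 in ST. MTST was higher than CK by 3.46 ± 0.47 on the log2 scale (adjusted p = 0.00042, limma) and its log2 difference from ST was -3.31 ± 0.47 (adjusted p = 0.00084, limma). Ej00054931, an amino acid transporter by its GO term, rose from 1.43, 0.487 and 3.15 to 40.7, 24.6 and 23.5 (3.59 ± 0.33, adjusted p = 4.2e-05, limma) and stood at 149, 146 and 125 in ST. Ej00027583, with xyloglucan-specific endo-beta-1,4-glucanase activity, rose from 2.17, 2.41 and 1.14 to 24.5, 53.6 and 39.9 (3.76 ± 0.38, adjusted p = 8.1e-05, limma), and ST at 18.4, 55.3 and 37.1 overlapped MTST. Ej00095140, an oxidoreductase acting on metal ions, was at 0.556, 0.569 and 0.270 in CK, 51.5, 5.81 and 57.9 in MTST and 147, 952 and 583 in ST (4.24 ± 0.82 for MTST against CK, adjusted p = 0.0031, limma). Its MTST replicate 2 was again far below the others, and limma-voom on recovered reads did not call it (adjusted p = 0.18).

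The deepest falls from CK included transcripts low in MTST alone. Ej00089037, a gene of the amino sugar and nucleotide sugar map, was at 30.4, 21.7 and 72.8 normalised TPM in CK and 53.7, 98.2 and 94.7 in ST but at 1.01, 0.696 and 1.27 in MTST. The log2 difference of MTST was -4.24 ± 0.38 from CK (adjusted p = 4.1e-05, limma) and -5.35 ± 0.38 from ST (adjusted p = 4.6e-05, limma). Ej00017729, with glycerophosphodiester phosphodiesterase activity, which breaks down membrane lipid remnants, was at 43.5, 27.3 and 95.1 in CK, 4.49, 2.37 and 3.90 in MTST and 15.6, 35.5 and 57.5 in ST. It differed from both groups (-3.46 ± 0.49 from CK, adjusted p = 0.00056, and -2.87 ± 0.49 from ST, adjusted p = 0.0023, limma). For both genes every MTST library lay below every ST library.

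Other deep falls were shared with ST. Ej00052450, whose GO terms name binding to ubiquitinated histones, was at 309, 398 and 94.6 in CK, 19.4, 16.1 and 13.3 in MTST and 1.95, 1.25 and 4.29 in ST, so that MTST was lower than CK (-3.74 ± 0.48, adjusted p = 0.0003, limma) yet higher than ST (adjusted p = 0.0051, limma). Ej00028283, with the same terms, fell from 28.6, 33.0 and 20.01 to 0.759, 0.473 and 1.30 (-3.93 ± 0.24, adjusted p = 7.3e-06, limma), and 2 of 3 ST libraries had no reads. Ej00036035, with cyanoalanine synthase and cysteine synthase activities, which belong to sulfur metabolism, fell from 28.9, 28.6 and 12.2 to 2.36, 2.0 and 1.53 (-2.94 ± 0.36, adjusted p = 0.00022, limma). ST was at 4.2, 1.27 and 2.24 and overlapped MTST.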

How the data were processed

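RNA sequencing of loquat leaves covered 9 libraries in 3 groups of 3 replicates, assigned from the sample labels. Reads were trimmed (Trim-Galore, Trimmomatic), mapped to the loquat genome named JFZ (HISAT2) and assigned to genes (Rsubread), and the deposited values are FPKM per gene as the authors computed them. Tool versions, and how reads shared by several genes were treated, were not given in the sources consulted. The table's group averages and the authors' own comparisons (fold changes and p-values) were not used. Of its 43996 genes, 18531 carry a GO term and 7277 a KEGG map, and none carries a gene name, so a gene is described by its annotation. *EjTIFY* names are those of the study.

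FPKM was rescaled to TPM and divided by median-of-ratios factors (normalised TPM), because the study's own test scales in this way. Each gene's FPKM values stepped by the worth of 1 read, from which whole reads were recovered for 31458 of 31458 genes above 0 (to within 1e-05 reads, over lengths from 60 to 20000 bases), and the library totals of 13048770 to 14468499 reads. A gene of the median length of 1466 bases at 1 FPKM rests on few reads, so precision is low there. Intervals on reads cover counting error only.

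Genes with an FPKM of at least 1 in at least 3 libraries were fitted on log2(normalised TPM + 1) with limma 3.58.1 under R 4.3.3, using its moderated statistics with a trend on the mean, group as the only term and all 9 libraries. Calls required a p of at most 0.05 after Benjamini-Hochberg adjustment. The fit was run on simulated reads for 22697 genes, of which 200 well expressed ones were changed by known folds. It recovered 193 of these and called 12 unchanged genes. The simulated spread beyond counting error was the same for every gene. The run thus checks the code and does not measure the error rate of the calls here. Annotation groups were not tested as sets. Their members were counted and their median given if at least 5 were tested.

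Genes named were the 10 annotated rises and 10 falls with the largest log2 fold change among genes called with a fold of at least 2 under both scalings, with a mean of at least 5 normalised TPM and no overlap between CK and MTST, up to 2 rises and 2 falls of each group by the same rule, and the *EjTIFY* genes called. A molecular function counted as specific if fewer than 1500 genes carried it. Of all tested genes, 52.5% had no overlap between CK and MTST, so this is no result for a gene named by the rule. Not every gene that the rule gave is printed. The members, gene lists and rules were chosen with earlier results of these data known. GO terms were matched by identifier, since term names are missing for part of the genes, and 2 KEGG maps under another name of the same map.

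Alternatives were plain TPM, FPKM as deposited, a pseudocount of 0.1 instead of 1, no filter, a mean of at least 5 normalised TPM, the 6 CK and MTST libraries alone, limma-voom on recovered reads, the replicate number as a block, and leaving out each library. Untested values count as changed beyond 1 SD of their leave-one-out values. The replicates were described by the study as biological. Where nothing ties them to separate plants, p-values measure only the spread between these samples. Python 3.11.15, pandas 2.3.3, numpy 2.4.6, scipy 1.17.1 and matplotlib 3.10.9 were used for tables and figures.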

Additional observations from a re-analysis of the deposited data

How the results depend on the processing

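The counts of genes higher and lower in MTST than in CK depended on the scaling. Without the median-of-ratios factors they were 6994 and 2536 at any fold with plain TPM (1399 and 725 at a fold of at least 2), and 7186 and 2549 with FPKM as deposited (1227 and 645), against 3977 and 4424 (948 and 1052) in the report. The median of all log2 fold changes, 0.0037 in the report, was 0.19 with plain TPM, 0.19 with FPKM, 0 without the filter, -0.011 with a mean of at least 5 normalised TPM and 0.012 with the 6 CK and MTST libraries alone, and leaving out single libraries gave -0.00090 to 0.0074. Leaving out single libraries gave 883 to 1059 higher and 985 to 1148 lower genes at a fold of at least 2, and 2864 to 4394 and 3342 to 4709 at any fold. A pseudocount of 0.1 gave 1326 higher and 1257 lower at a fold of at least 2, and limma-voom on recovered reads 1161 and 1227. With the replicate number as a block the counts were 953 and 1050, or 3756 and 4136 at any fold. The replicate numbers showed no sign of pairing the samples. Same-numbered libraries of different groups correlated in their deviations at -0.16 to 0.087 and differently numbered ones at -0.16 to 0.17. With so few libraries per group this cannot exclude a pairing. No blocked value is used elsewhere. Of the values for named genes under the alternatives, 2819 kept their direction and call, 58 lost the call, 10 gained one and none reversed. Apart from the *EjTIFY* genes, the named genes were chosen for passing under both scalings, so part of this count was fixed in advance. Of the values for annotation groups, 2661 stayed the same and 654 counted as changed. Depth limits the weakly expressed genes, and the fold of at least 2 on this scale leaves out some that pass with the smaller pseudocount.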

Other observations

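Maps of aromatic amino acids held many rises. In Tyrosine metabolism 23 of 45 tested genes were higher in MTST than in CK and 4 lower (median 0.36, and 0.40 for ST against CK), and in Phenylalanine metabolism 13 of 29 were higher and 1 lower (median 0.47, and 0.83 for ST). Isoquinoline alkaloid biosynthesis had 14 of 26 higher and 2 lower, but 25 of its 26 genes are also in the tyrosine map, so these are largely the same genes. Among the falls was Ej00001299, annotated with tyrosine aminotransferase activity, at 79.1, 75.7 and 77.5 normalised TPM in CK, 22.3, 21.9 and 21.4 in MTST and 41.5, 19.8 and 30.3 in ST (-1.78 ± 0.20 on the log2 scale for MTST against CK, SE, n = 3 per group, adjusted p = 0.00015, limma).

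Genes that charge transfer RNAs leaned the other way. In Aminoacyl-tRNA biosynthesis 36 of 87 tested genes were lower in MTST than in CK and 2 higher, with a median of -0.25 (-0.05 with plain TPM, where 12 were lower and 4 higher) against -0.29 for ST. Without MTST replicate 2, 22 genes of this map were lower. In the smaller map Sesquiterpenoid and triterpenoid biosynthesis 9 of 16 genes were lower and 2 higher (6 lower without CK replicate 1), with a median of -0.32 against -0.31 for ST. Valine, leucine and isoleucine degradation had 14 of 52 genes higher and 4 lower (7 lower without MTST replicate 3). These maps were picked after their values were seen.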
